A study of Danio rerio with 32 samples.

Results

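Embryos of the zebrafish, Danio rerio, exposed to valproic acid were compared with control embryos across the whole measured transcriptome. The comparison takes the 8 libraries whose labels name valproic acid and the 8 control libraries, 16 of the 32 libraries in the series, and all 15710 genes of the deposited table. The other 16 libraries, 8 of all-trans retinoic acid and 8 of folic acid, the negative control of the design, are used only where they show how the valproic acid response differs from the rest. Exposure lasted 4 h, from 3 to 7 h after fertilization, and the labels describe one medium for all groups, Dutch standard water with 0.01% DMSO. They give no dose of valproic acid. RNA came from whole embryos, so each value is an average over all cell types. Library titles carry numbers that fall into 4 sets, 1-12, 13-24, 25-36 and 37-48, each with 2 libraries of either group, and every difference below was estimated within these sets. What the numbers stand for is not stated, nor whether libraries of 1 group are separate clutches. The p-values therefore rest on the variation among libraries, part of which may be technical.

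Valproic acid is a branched short-chain fatty acid used against epilepsy, and it inhibits histone deacetylases. These enzymes remove acetyl groups from the tails of histones and from other proteins, opposite to histone acetyltransferases, and acetylated histones mark active promoters and enhancers. As a fatty acid it is also coupled to coenzyme A and carnitine and competes with other fatty acids for oxidation in mitochondria. The exposure window runs from the onset of transcription of the embryo's own genome to gastrulation, when the germ layers form and the first regional patterning genes come on.

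Gene expression was measured as normalized log2 values, on which a difference of 1 is a 2-fold change. Values are comparable between libraries for 1 gene, but they are not scaled to transcript length, so levels are not compared between genes. The distribution of values was practically the same in all libraries, so a change in the total RNA of the embryo could not be seen. The number of distinct values below the lower quartile, which grows with depth, ran from 18 to 52 in valproic acid libraries and from 19 to 47 in control libraries. On the first principal component of the 16 libraries, with 26.2% of the variance, valproic acid libraries lay between 25.2 and 51.5 and control libraries between -52.8 and -20.2. On the second, with 16.9%, the groups overlapped, and the farthest libraries were valproic acid replicates 1 and 2 at the low end, at -59.7 and -41.9, and valproic acid replicate 6 and control replicate 1 at the high end, at 45.4 and 41.2. In the set 1-12 both valproic acid libraries lay above the rest of their group in Hox and Cdx genes and control replicate 1 was the lowest of its group. The counts that lead the account of regional genes are given there with and without valproic acid replicate 1 and control replicate 1.

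After valproic acid a large share of the transcriptome differed from control, mostly by small amounts. Of 15710 genes, 2904 rose (18.5%) and 2788 fell (17.7%) at an adjusted p under 0.05 in limma, together 36.2%. At least 2-fold rises numbered 680 (4.33%) and at least 2-fold falls 569 (3.62%), while 2894 of the 5692 genes that passed changed by less than 1.5-fold. The median size of the change among genes that passed was 0.58 on the log2 scale, and the median difference over all genes was -0.01. The groups did not overlap, with every valproic acid library above or below every control library, for 635 genes that were higher (4.04%) and 437 that were lower (2.78%). Changes of at least 2-fold were mostly found among genes at low levels. Of the 1571 genes with the lowest mean levels 160 rose and 129 fell at least 2-fold, and of the 1571 with the highest 3 rose and none fell. The median SE of the difference was 0.46 in the former and 0.07 in the latter, so smaller changes could rarely pass at low levels. In the former, 164 rises and 134 falls of any size passed. In bulk RNA of whole embryos, fewer cells of a type and less RNA per cell cannot be told apart.

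**Figure D1:**
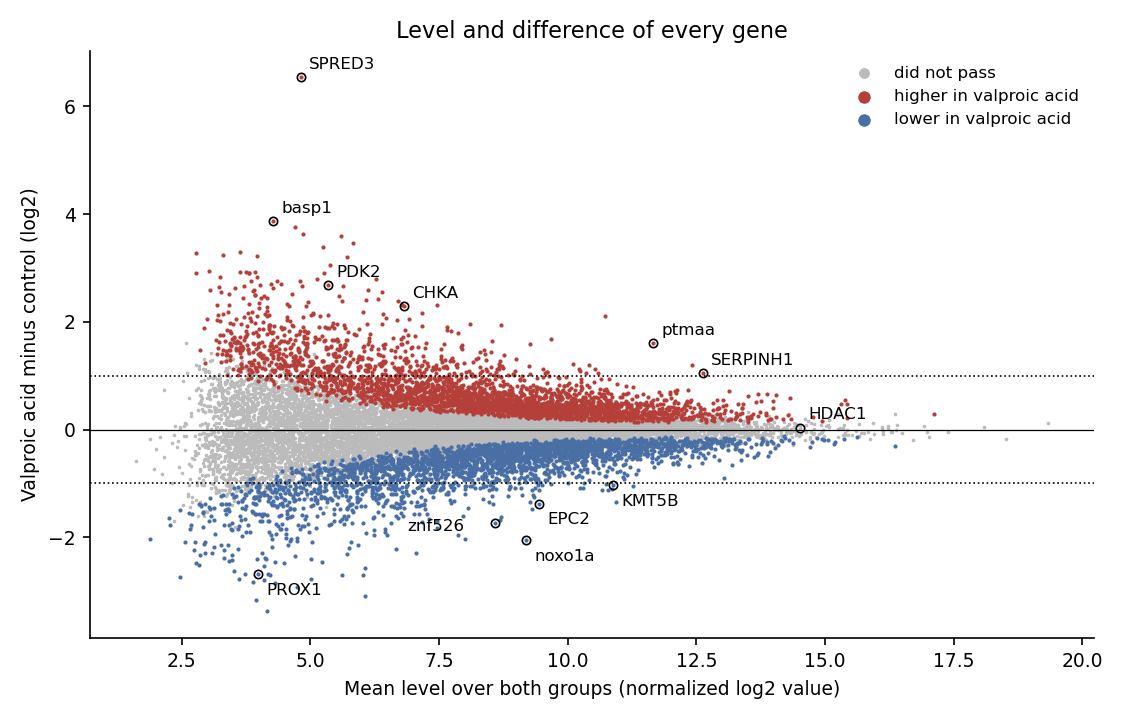
Difference between valproic acid and control embryos (log2, vertical axis) against the mean level over both groups (normalized log2 value, horizontal axis) for 15710 genes, with genes that passed in red (2904 higher) or blue (2788 lower) and dotted lines at a 2-fold change. The spread of differences narrows as the level rises, and SPRED3 lies alone at 6.54.

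Most genes that passed lay outside the patterning groups, as did most genes measured. Patterning genes fell more often than the rest and rose less often. The 23 groups of patterning, signaling and lineage genes examined here hold 754 measured genes, with a median difference of -0.28. Among these genes 61 rose (8.09%) and 299 fell (39.7%). Inside the groups 15 rises and 96 falls reached 2-fold. Outside these groups were 14956 genes, with 2843 rises (19.0%) and 2489 falls (16.6%). At least 2-fold rises numbered 665 there, of 680 in all, and at least 2-fold falls 473, of 569 in all. Genes were grouped by function into 57 lists and 42 name families, and the plot of 30 groups shows the share of members that passed in each direction.

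**Figure D2:**
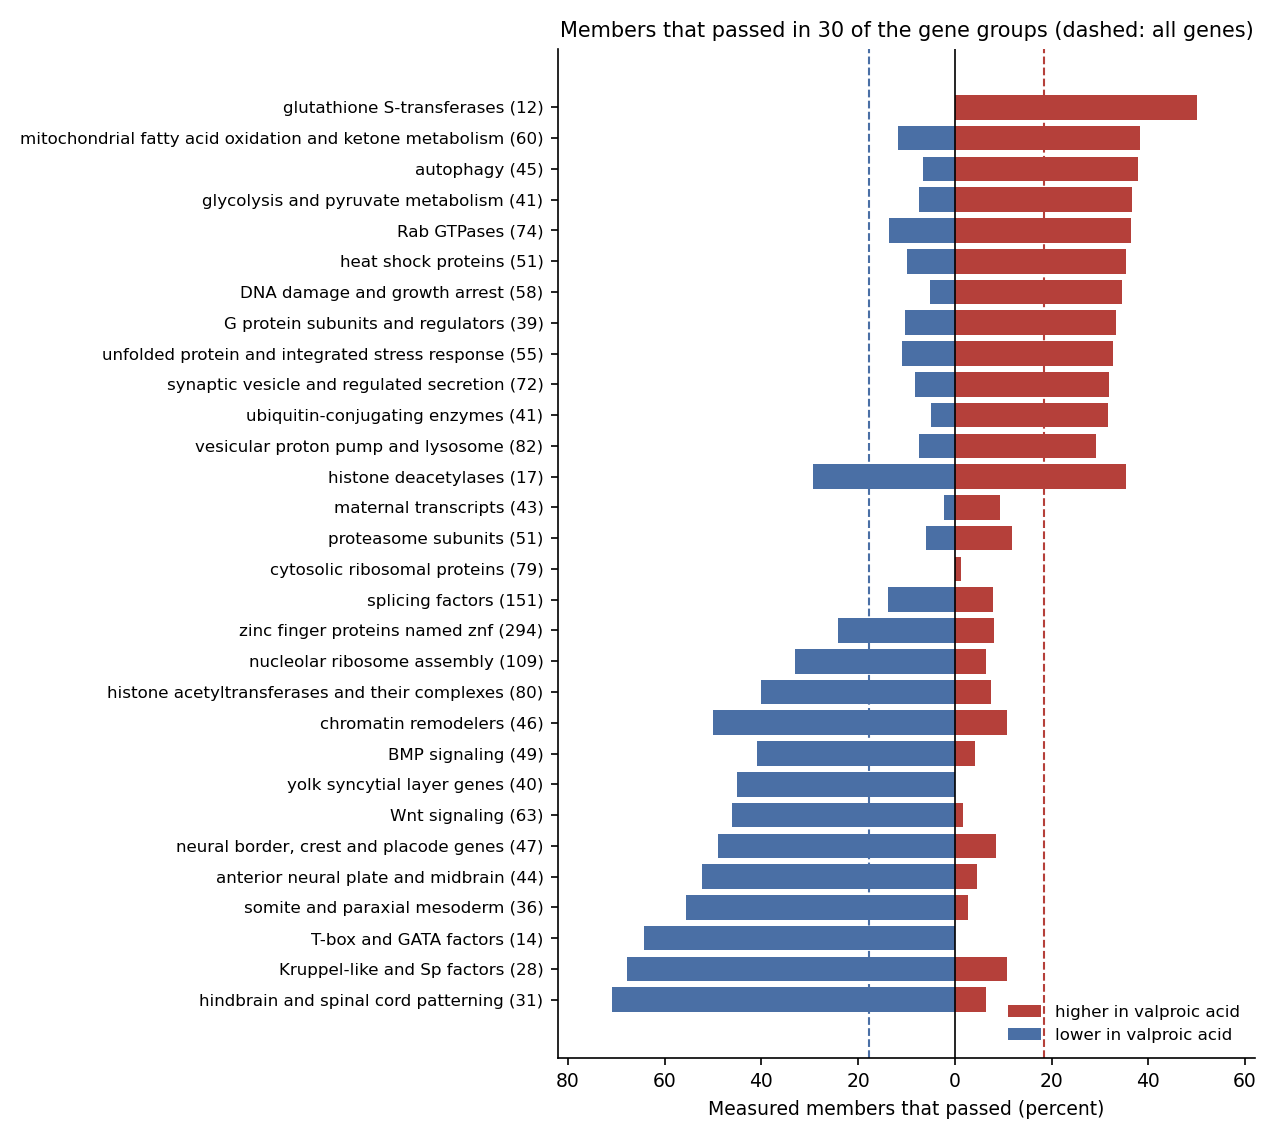
Share of the measured members of 30 gene groups (number of members in brackets) that were higher (red, to the right) or lower (blue, to the left) in valproic acid embryos than in control embryos at an adjusted p under 0.05, in percent. Dashed lines give the shares over all genes, 18.5% higher and 17.7% lower. Metabolic, stress and secretory groups reach past the right line and chromatin and patterning groups past the left one.

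Histone deacetylases changed in both directions. Of 17 measured, 6 rose and 5 fell, and the median differed by -0.10. The list holds 7 sirtuins, NAD-dependent enzymes of another class, of which 3 rose and 2 fell, and among the 10 others 3 rose and 3 fell. The falls numbered 2 or 3 when any 1 of control replicates 3, 4, 5 and 8 or valproic acid replicates 3, 4 and 5 was left out. HDAC1, a nuclear deacetylase of class I, had a lowest, median and highest value of 14.47, 14.55 and 14.60 in valproic acid libraries and 14.47, 14.49 and 14.58 in control libraries. The groups overlapped, and the difference was 0.03 (SE 0.04, 95% confidence interval -0.06 to 0.13, adjusted p = 0.58). The gene hdac3, the catalytic subunit of the nuclear receptor corepressor complex, differed by -0.10 (adjusted p = 0.22), and HDAC8 by 0.30 (adjusted p = 0.031). The HDAC8 call was lost in 11 of the alternative settings, with adjusted p from 0.055 to 0.12 there, among them those without control replicate 2, 4, 5 or 8 or valproic acid replicate 4 or 8. The remaining rises were SIRT2 (0.53), SIRT5 (0.58), hdac12 (0.75), SIRT4 (1.06) and hdac7b (1.69), and the falls were hdac9b (-1.10), HDAC5 (-0.69), SIRT1 (-0.53), SIRT6 (-0.51) and HDAC6 (-0.38). Corepressor partners were as evenly split, with 9 rises and 9 falls among 41 (22.0% each), against 18.5% and 17.7% of all genes. SIN3A (ENSDARG00000079716), the scaffold of a deacetylase complex, rose by 0.61 (SE 0.08, adjusted p = 2.6e-05), PHF12 (ENSDARG00000074303) by 0.55 and RCOR1, the scaffold that joins deacetylases to a histone demethylase, by 0.42, while MTA3 of the nucleosome remodeling and deacetylase complex differed by -0.53 (adjusted p = 3.9e-05).

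Histone acetyltransferases and the subunits of their complexes fell more often than they rose. Of 80 measured, 32 fell and 6 rose, where 17.7% of all genes fell and 18.5% rose. The median of the list differed by -0.18, and in 16 the groups did not overlap (6.82% of all genes). EPC2, a scaffold subunit of the NuA4 acetyltransferase complex, had 8.22, 8.77 and 9.24 in valproic acid libraries and 9.86, 10.19 and 10.26 in control libraries as lowest, median and highest value. No valproic acid library reached the lowest control library, and the difference was -1.37 (SE 0.09, adjusted p = 1e-08). Its paralog EPC1 (ENSDARG00000060054) ran from 9.78 to 10.35 in valproic acid libraries and from 11.16 to 11.35 in control libraries, again without overlap (difference -1.13, SE 0.07, adjusted p = 6.4e-09). ZZZ3, a reader subunit of the ATAC acetyltransferase complex, was at 10.57 ± 0.11 in valproic acid and 11.35 ± 0.06 in control libraries (SD, n = 8 each, adjusted p = 6.5e-08 by limma). Falls also covered the catalytic subunits CREBBP (ENSDARG00000112452, -0.61, and ENSDARG00000104609, -0.58), EP300 (ENSDARG00000100666, -0.38), KAT6A (-0.58), KAT7 (-0.27) and KAT8 (-0.20), and YEATS2 (-1.05), a second ATAC reader. KAT6B (0.63) and kat7a (0.74) rose. In each of the 4 title-number sets the median of the list was below 0, between -0.24 and -0.12. The list mean ran from 9.66 to 9.89 over valproic acid libraries and from 9.95 to 10.08 over control libraries.

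Proteins that read acetylated lysine or act at that step of elongation had 11 falls and 3 rises among 33. The rises numbered 6 without control replicate 1, and without the set 1-12 there were 6 rises and 7 falls. CCNT1, the cyclin of the kinase that releases paused RNA polymerase, fell by 0.54 (SE 0.07, adjusted p = 3e-05), and so did both genes named MLLT1, acetyl-lysine readers of the super elongation complex, by 0.54 (ENSDARG00000043185) and 0.44 (ENSDARG00000031709). Of 46 chromatin remodelers, 23 fell and 5 rose, and the median differed by -0.20. With folic acid in place of control 14 of them fell, and without control replicate 3 rises numbered 8. INO80, the motor of the INO80 complex, was at 10.57 ± 0.15 in valproic acid and 11.09 ± 0.09 in control libraries (adjusted p = 1.7e-05 by limma, n = 8 each), and its subunit gene ino80db fell by 0.71. DPF1, a subunit of the BAF complex used in neurons, went the other way and had 7.33, 7.64 and 7.97 in valproic acid libraries, against 5.38, 6.0 and 6.74 in control libraries. Its groups did not overlap (difference 1.62, SE 0.18, adjusted p = 3.1e-06).

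**Figure D3:**
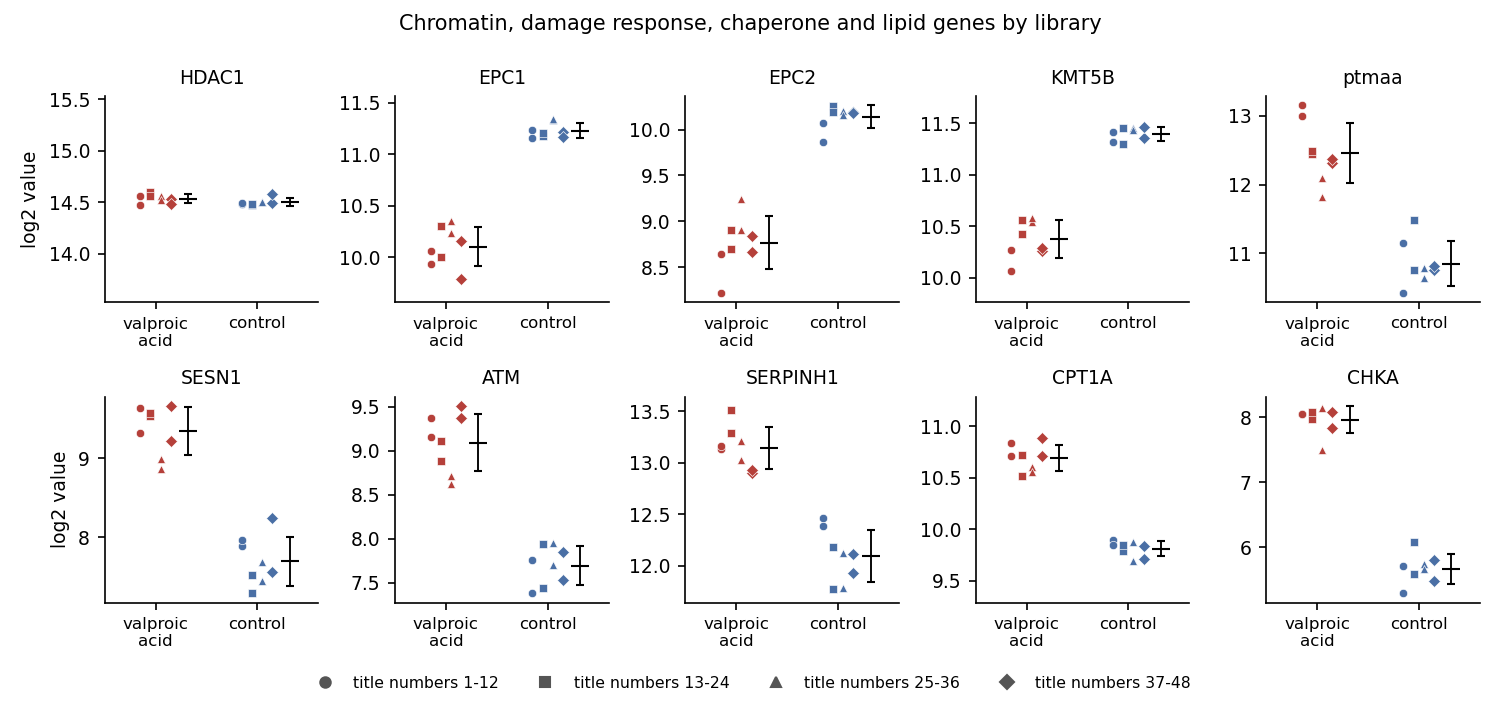
Normalized log2 values by library (points, 8 valproic acid libraries on the left and 8 control libraries on the right of each panel) with group mean ± SD (black) for 10 genes, on axes that differ between panels. Marker shapes give the set of title numbers. HDAC1 overlaps between groups, EPC1, EPC2 and KMT5B are lower and ptmaa, SESN1, ATM, SERPINH1, CPT1A and CHKA higher in every valproic acid library.

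Enzymes of histone and DNA methylation fell more often than they rose, with 24 falls and 10 rises among 75, against 15 and 13 with folic acid in place of control. KMT5B, which methylates lysine 20 of histone H4, had 10.06, 10.35 and 10.58 in valproic acid libraries and 11.30, 11.42 and 11.47 in control libraries. The groups did not overlap (difference -1.03, SE 0.07, adjusted p = 1e-08). PCGF1 of a Polycomb repressive complex fell by 1.25 (SE 0.19), AEBP2, a partner of the other Polycomb complex, by 0.35, and the lysine demethylase gene KDM5B (ENSDARG00000057093) rose by 0.64 (SE 0.07, adjusted p = 3.7e-06). PRDM10, a PR domain transcription factor, fell by 1.39 (SE 0.13, adjusted p = 4.9e-07), and ATXN7L2 (ENSDARG00000055300), a paralog of a SAGA complex subunit, by 1.22 (SE 0.09, adjusted p = 4.1e-08).

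Single linker histones and small chromatin proteins rose, while their lists were split. Among 44 histone variants and chaperones, 10 rose (22.7%) and 8 fell (18.2%), near the 18.5% and 17.7% of all genes. The family of 28 histone genes had 3 rises and 3 falls. The linker histone gene histh1l1 was at 13.01 ± 0.60 in valproic acid and 11.81 ± 0.44 in control libraries (SD, n = 8 each), a rise of 1.2 (adjusted p = 2.1e-05 by limma), and H1-10 rose by 1.27 (SE 0.20, adjusted p = 0.00012). The groups overlapped for histh1l1, and the size of its rise depended on the title-number set. It differed by 2.16, 0.62, 0.72 and 1.31 in the sets in title order. The gene ptmaa, a prothymosin alpha that binds histones, rose most among the 1571 genes with the highest mean levels, with 11.82, 12.40 and 13.15 in valproic acid libraries and 10.43, 10.77 and 11.48 in control libraries, without overlap (difference 1.61, SE 0.14, adjusted p = 2.1e-07).

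Genes known to rise with deacetylase inhibitors in cell lines moved in both directions in these embryos. Of 35 measured, 8 rose and 8 fell (22.9% each), against 18.5% and 17.7% of all genes. The rises included MXD4, an antagonist of MYC (1.73, SE 0.23, adjusted p = 2.3e-05), TXNIP (ENSDARG00000070000), a thioredoxin inhibitor (2.16), and TIMP2 (ENSDARG00000061226), a protease inhibitor (2.26, SE 0.35). A second TXNIP gene (ENSDARG00000036107) differed by 0.11 and did not pass (limma adjusted p = 0.15). A second TIMP2 gene (ENSDARG00000075261) fell by 0.62, and KLF4 by 1.30, klf2a by 0.64 and klf2b by 0.45. The cell cycle inhibitor gene cdkn1a, the usual marker of deacetylase inhibition in cell lines, was at 5.13 ± 0.73 in valproic acid and 5.61 ± 0.25 in control libraries (SD, n = 8 each), and did not pass (difference -0.48, limma adjusted p = 0.17).

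Genes of the DNA damage response and growth arrest rose more often than they fell. Of 58 measured, 20 rose, 3 fell and 35 did not pass (34.5% rose and 5.17% fell), and the median differed by 0.07. SESN1, a sestrin that restrains growth signaling under stress, had 8.86, 9.42 and 9.66 in valproic acid libraries and 7.29, 7.62 and 8.23 in control libraries. The groups did not overlap (difference 1.65, SE 0.13, adjusted p = 7e-08). ATM, the kinase that senses double-strand breaks, ran from 8.62 to 9.51 in valproic acid and from 7.38 to 7.95 in control libraries (difference 1.39, SE 0.13, adjusted p = 7e-07). The rises were spread over the pathway, with the kinases ATR (0.47), CHEK1 (0.34) and chek2 (0.50), the break-binding proteins MRE11 (0.63), RAD50 (0.35), XRCC5 (0.25) and XRCC6 (0.51), and the crosslink repair gene FANCD2 (0.82). The falls included GADD45G (ENSDARG00000016725), an inducible growth arrest gene also expressed in patterned tissue, with 3.46, 4.46 and 5.58 in valproic acid libraries and 6.21, 6.93 and 7.48 in control libraries, without overlap (difference -2.31, SE 0.26, adjusted p = 3.6e-06). PLK2 (-1.25) and GADD45B (ENSDARG00000013576, -0.42) fell with it.

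Apoptosis genes rose more often than they fell, with 11 rises (32.4%) and 5 falls (14.7%) among 34. The death agonist gene bida rose by 0.81 (SE 0.11, adjusted p = 2.1e-05), while diabloa, which relieves caspase inhibition once released from mitochondria, fell by 1.04 (SE 0.08, adjusted p = 1.2e-07) and the death receptor adaptor FADD by 0.86 (SE 0.13). Of 75 genes of G1 and S phase, 18 fell and 9 rose. MCM7 of the replicative helicase was at 13.72 ± 0.16 in valproic acid and 14.13 ± 0.08 in control libraries (SD, n = 8 each, limma adjusted p = 5.8e-05), whereas the origin subunit gene orc2 rose by 1.0 (SE 0.14) and TFDP1 (ENSDARG00000019293), a partner of E2F factors, by 0.48. Of 64 genes of G2 and mitosis, 9 rose (14.1%) and 8 fell (12.5%), below the 18.5% and 17.7% of all genes. Among them were rises of hmmr (0.56), espl1 (0.35) and UBE2C (0.31) and falls of PLK4 (-0.46), NCAPH (-0.29) and cdc25d (-1.02). Without control replicate 1 there were 14 rises and 5 falls, and with folic acid in place of control 5 rises and 11 falls. Leaving out control replicate 2 or 7, or one of valproic acid replicates 1 and 8, also left 5 falls.

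Heat shock proteins and their partners rose more often than they fell. Of 51 measured, 18 rose and 5 fell, and the median differed by 0.13. The falls numbered 2 without control replicate 5, and 3 when control replicate 1 or 7 was left out, or one of valproic acid replicates 1, 4 and 8. The wider name family of heat shock and DnaJ proteins had 16 rises (21.9%) and 7 falls among 73, close to the 18.5% of all genes for the rises. SERPINH1 (ENSDARG00000019949), the collagen chaperone of the endoplasmic reticulum, had 12.90, 13.15 and 13.51 in valproic acid libraries and 11.78, 12.12 and 12.46 in control libraries. It did not overlap between groups (difference 1.05, SE 0.09, adjusted p = 2.8e-07). The mitochondrial chaperone genes HSPE1 (0.93, SE 0.08, adjusted p = 2.1e-07), HSPD1 (0.49) and HSPA9 (0.46) rose, as did DNAJA2 (ENSDARG00000010745), a cochaperone of HSP70 (0.72, SE 0.06, adjusted p = 8.9e-08), and the cochaperones BAG2 (1.85) and BAG3 (0.74).

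The unfolded protein and integrated stress response list had 18 rises and 6 falls among 55. ASNS, asparagine synthetase, was at 9.28 ± 0.42 in valproic acid and 8.05 ± 0.36 in control libraries (SD, n = 8 each), a rise of 1.22 (limma adjusted p = 4.6e-06). The disulfide isomerase genes PDIA4 (1.03), PDIA3 (0.50), PDIA6 (0.32) and P4HB (0.43) and the sestrin gene sesn2 (0.77) rose, while the transcription factors DDIT3 (-0.51), atf4b (-0.26) and XBP1 (-0.21) fell. Of 45 autophagy genes, 17 rose and 3 fell (37.8% and 6.67%), with atg9b, a membrane carrier of the forming autophagosome (0.74, SE 0.07, adjusted p = 7.4e-07), the cargo receptor SQSTM1 (0.70) and MAP1LC3B, which coats autophagosome membranes (0.49). ATG7 (-0.90) and ulk1a (-0.77) fell. Ubiquitin-conjugating enzymes had 13 rises (31.7%) and 2 falls (4.88%) among 41. Proteasome subunits had 6 rises (11.8%) and 3 falls (5.88%) among 51, both below the 18.5% and 17.7% of all genes.

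Genes that handle oxidants and foreign compounds changed in both directions, apart from glutathione S-transferases. Of 47 genes of oxidative stress and thiol metabolism, 13 rose (27.7%) and 7 fell (14.9%), where 18.5% of all genes rose and 17.7% fell. Cytochrome P450 enzymes leaned the other way, with 12 falls (30.8%) and 6 rises (15.4%) among 39. Of 12 measured glutathione S-transferases, which couple glutathione to reactive compounds, 6 rose and none fell, and the median differed by 0.73. The rises were GSTM3 (ENSDARG00000029473, 1.51, and ENSDARG00000042533, 0.98), gstk1 (1.25), gstt2 (1.09), gstt1b (0.88) and gstp1.2 (0.68). The glutathione peroxidase gene GPX8 rose by 1.14 (SE 0.11, adjusted p = 4.9e-07) and glutathione reductase, GSR, by 0.69 (SE 0.09). The NADPH oxidase organizer gene noxo1a was lower, with 7.62, 8.11 and 8.83 in valproic acid libraries and 9.93, 10.17 and 10.47 in control libraries, without overlap (difference -2.05, SE 0.13, adjusted p = 1e-08). In the wider list of xenobiotic metabolism 10 rose and 9 fell among 39, with rises of POR (ENSDARG00000059035), the electron donor of P450 enzymes (0.89), and falls of cyp2aa4 (-1.04) and tiparp, a target of the aryl hydrocarbon receptor (-0.50).

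Fatty acid oxidation was among the groups with most rises. Of 60 measured genes of mitochondrial fatty acid oxidation and ketone metabolism, 23 rose and 7 fell (38.3% and 11.7%), and the median differed by 0.18. CPT1A, the carnitine transferase that admits long-chain fatty acids to mitochondria, had 10.51, 10.71 and 10.88 in valproic acid libraries and 9.69, 9.84 and 9.89 in control libraries. Every valproic acid library was higher (difference 0.88, SE 0.07, adjusted p = 5e-08). PDK2, a kinase that shuts pyruvate out of the citric acid cycle, ran from 6.11 to 7.00 in valproic acid and from 2.79 to 4.84 in control libraries, also without overlap (difference 2.68, SE 0.29, adjusted p = 2.5e-06), and PDK4 (1.18), cpt1ab (1.25), the peroxisomal enzyme EHHADH (1.63), the receptor PPARD (ENSDARG00000044525, 1.11) and the coactivator ppargc1b (1.19) rose with it. ACSS2, which makes acetyl coenzyme A from acetate, rose by 0.70 (SE 0.07, adjusted p = 5.7e-07). The falls were HADHA (-0.50) and hadhaa (-0.71), both genes of the trifunctional protein subunit, the short-chain dehydrogenase ACADS (-0.45), the carnitine carrier SLC25A20 (-0.42), ACSL5 (-0.92), HMGCS1 (-0.51) and HACL1 (-0.37). In the 4 title-number sets the list median was 0.28, 0.27, 0.10 and 0.16. Without the set 37-48, 15 of the genes rose.

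The lists of glycolysis and the citric acid cycle held more rises than falls. Of 41 genes of glycolysis and pyruvate metabolism, 15 rose and 3 fell, including HK1, hexokinase (0.80, SE 0.08, adjusted p = 6.3e-07), PDHB of pyruvate dehydrogenase (0.62) and PFKFB4, which sets a glycolytic activator (0.47). Of 36 citric acid cycle genes and their neighbours, 11 rose (30.6%) and 6 fell (16.7%), the falls near the 17.7% of all genes. The aspartate aminotransferase gene got2b was at 1.13 (SE 0.13) and the mitochondrial enzyme IDH2 at 0.47, whereas its cytosolic counterpart IDH1 differed by -0.49. Respiratory chain subunits had 11 rises and 4 falls among 86, fewer than the 36.2% of all genes that passed. The rises numbered 7 when control replicate 5 or valproic acid replicate 5 was omitted, 6 without control replicate 7 and 6 without the set 1-12. With folic acid in place of control 1 subunit rose and 9 fell.

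Lipid synthesis genes changed in both directions, with 22 falls (32.4%) and 15 rises (22.1%) among 68, against 17.7% and 18.5% of all genes. CHKA, choline kinase, the first step of phosphatidylcholine synthesis, had 7.50, 8.05 and 8.15 in valproic acid libraries and 5.30, 5.69 and 6.08 in control libraries, a 4.89-fold rise without overlap (SE 0.15 on the log2 scale, adjusted p = 1e-08). The elongase gene ELOVL4 (ENSDARG00000006773) rose by 2.62 (SE 0.31) from a low level, and the ceramidase gene ASAH1 (ENSDARG00000037091) fell by 0.84 (SE 0.09, adjusted p = 4.2e-06). Of 48 genes of sterol synthesis and cholesterol handling, 12 rose and 8 fell, with EBP, a sterol isomerase, at 1.69 (SE 0.16, adjusted p = 6e-07), and ldlrb, a lipoprotein receptor, at -1.34 (SE 0.12, adjusted p = 2.3e-07). Of 42 genes of the folate, serine and methionine cycles, 12 rose (28.6%) and 8 fell (19.0%). Among them were rises of ALDH1L1, which oxidizes formyl folate (1.04, SE 0.11), and AHCY, which clears S-adenosylhomocysteine (0.45, SE 0.05), and a fall of the purine synthesis gene ADSL (-0.88, SE 0.11). Among single enzymes outside these lists, the urea cycle gene ASL rose by 1.59 (SE 0.12, adjusted p = 4.6e-08) and ADA2, a secreted adenosine deaminase, by 1.49 (SE 0.11, adjusted p = 6.5e-08).

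Genes of regulated secretion and of the nervous system's vesicles rose more often than they fell. Of 72 measured, 23 rose, 6 fell and 43 did not pass (31.9% rose and 8.33% fell), 10 of the rises were at least 2-fold, and the median differed by 0.21. SYPL2 (ENSDARG00000000690), a synaptophysin-like membrane protein, had 9.47, 9.65 and 10.07 in valproic acid libraries and 8.18, 8.35 and 8.50 in control libraries. The gene sypb, a synaptophysin, ran from 7.49 to 8.81 in valproic acid and from 4.72 to 6.65 in control libraries. Neither gene overlapped between groups (differences 1.32, SE 0.08, and 2.17, SE 0.19, adjusted p = 6.4e-09 and 3e-07), and vamp5, a vesicle fusion protein, rose by 2.38 (SE 0.18, adjusted p = 6.5e-08). The median of the list was 0.26, 0.24, 0.22 and 0.18 in the sets in title order. Synaptotagmins and syntaxins, a related name family, had 5 rises and 4 falls among 23 (21.7% and 17.4%), near the shares of all genes. Among markers of later tissues, ELAVL3, of differentiated neurons, was at 6.99 ± 1.03 in valproic acid and 5.90 ± 0.97 in control libraries (SD, n = 8 each), a rise of 1.1 (limma adjusted p = 0.011), and its part in these rises was not tested. The other markers of later tissues that were looked up, among them myl7, mpx and ins, were not found by name among the measured genes.

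Ion channels and receptors of excitable cells had 9 rises and 8 falls among 39, with 6 of the rises at least 2-fold. KCNK5 (ENSDARG00000012390), a background potassium channel, had 9.45, 9.65 and 9.93 in valproic acid libraries and 7.43, 7.76 and 8.0 in control libraries. It did not overlap between groups, and its differences in the 4 sets, 1.84, 2.09, 1.92 and 1.89, were nearly equal (difference 1.93, SE 0.11, adjusted p = 4.5e-09). ITPR1 (ENSDARG00000014655), which lets stored calcium into the cytosol, rose by 2.32 (SE 0.17, adjusted p = 4.1e-08), and GLRA1, a glycine receptor subunit, fell by 1.07 (SE 0.15). G protein subunits and regulators had 13 rises and 4 falls among 39, with a median of 0.21, and Rab GTPases, which direct vesicle traffic, 27 rises and 10 falls among 74. The Rab falls were not stable, with 6 left when control replicate 1 or 7, or one of valproic acid replicates 2 and 4, was omitted, 5 when control replicate 4 or valproic acid replicate 5 was omitted, and 1 with folic acid in place of control, beside 22 rises there. Of 82 genes of the vesicular proton pump and lysosome, 24 rose and 6 fell, including the pump subunit gene ATP6V1B2 (ENSDARG00000043465) at 2.07 (SE 0.20, adjusted p = 6.3e-07) and the lysosomal membrane gene scarb2a at 0.52.

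Cytoskeletal genes changed in both directions. Of 107 actin crosslinkers and regulators, 23 rose (21.5%) and 17 fell (15.9%), near the 18.5% and 17.7% of all genes. The rises included FLNC (ENSDARG00000018566), a filamin, at 2.32 (SE 0.23, adjusted p = 9.3e-07), ARPC5 (ENSDARG00000019062), a subunit of the branching complex, at 1.30 (SE 0.12, adjusted p = 5.6e-07) and CORO1C (ENSDARG00000021193) at 0.81. Of 93 genes of microtubules and motors, 26 rose and 18 fell, with MAP1B, a neuronal microtubule protein, at 0.97 (SE 0.14), tubb5 at 0.59 and MAP1S at -1.02 (SE 0.12). Among 90 junction and adhesion genes, 20 fell and 10 rose, but with folic acid in place of control 10 fell and 19 rose. A gene named JAM3 (ENSDARG00000114589), a junctional adhesion molecule, rose by 1.95 (SE 0.18, adjusted p = 3.7e-07) and its paralog JAM3 (ENSDARG00000061794) by 0.68, and PPL, a plakin of the surface epithelium, fell by 0.65 (SE 0.10). Of 86 extracellular matrix genes, 19 fell and 9 rose, 8 of the falls by at least 2-fold. The members with the smallest adjusted p were rises, among them col16a1 (1.67, SE 0.22) and the shedding protease ADAM17 (ENSDARG00000043213, 0.82, SE 0.08). The falls included FBLN1, a fibulin (-1.60, SE 0.26), HAPLN1, a link protein of hyaluronan (-2.70, SE 0.47), and COL2A1 (ENSDARG00000011407), a collagen of the notochord (-1.31). Matrix falls numbered 12 without control replicate 5 and 25 without the set 1-12, and with folic acid in place of control there were 13 falls and 14 rises. Innate immunity genes had 11 rises (20.8%) and 7 falls (13.2%) among 53, the rises near the 18.5% of all genes. The falls numbered 4 when control replicate 1, or one of valproic acid replicates 1, 2 and 8, was omitted. The rises included b2m, the light chain of class I antigen-presenting molecules (1.11, SE 0.16), and JAK1, a kinase of cytokine receptors (0.66).

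Some genes near the bottom of the scale in control embryos were well measured after valproic acid. Of 1393 genes with a control mean below 4, 290 rose (20.8%), and in 57 of them (4.09%) every valproic acid library was above every control library. Both shares were close to those of all genes, 18.5% and 4.04%. SPRED3, an inhibitor of RAS signaling, had 7.43, 8.13 and 8.54 in valproic acid libraries and 0.17, 1.45 and 2.96 in control libraries as lowest, median and highest value. This was the largest difference of any gene, 6.54 (SE 0.36, adjusted p = 4.4e-09), and 2 control libraries were at their lowest value, so its size is not exact. It stood at 5.16 to 7.73 in each of the 4 title-number sets. Other large rises were those of basp1, a growth cone protein (6.21 ± 0.40 in valproic acid and 2.34 ± 1.04 in control libraries, SD, n = 8 each), RAC3 (ENSDARG00000020795), a small GTPase of neurons (6.58 ± 0.65 in valproic acid and 2.82 ± 0.60 in control libraries), and SNAP91, a clathrin adaptor of synaptic vesicles (7.39 ± 0.70 in valproic acid and 3.79 ± 0.90 in control libraries). Their differences were 3.87, 3.76 and 3.59, with adjusted p = 3.4e-07, 4.6e-08 and 3e-07 by limma. GNB2, a G protein beta subunit, and GAREM2, an adaptor of growth factor receptors, differed by 3.39 (SE 0.56) and 3.30 (SE 0.50), each with 1 control library at its lowest value.

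**Figure D4:**
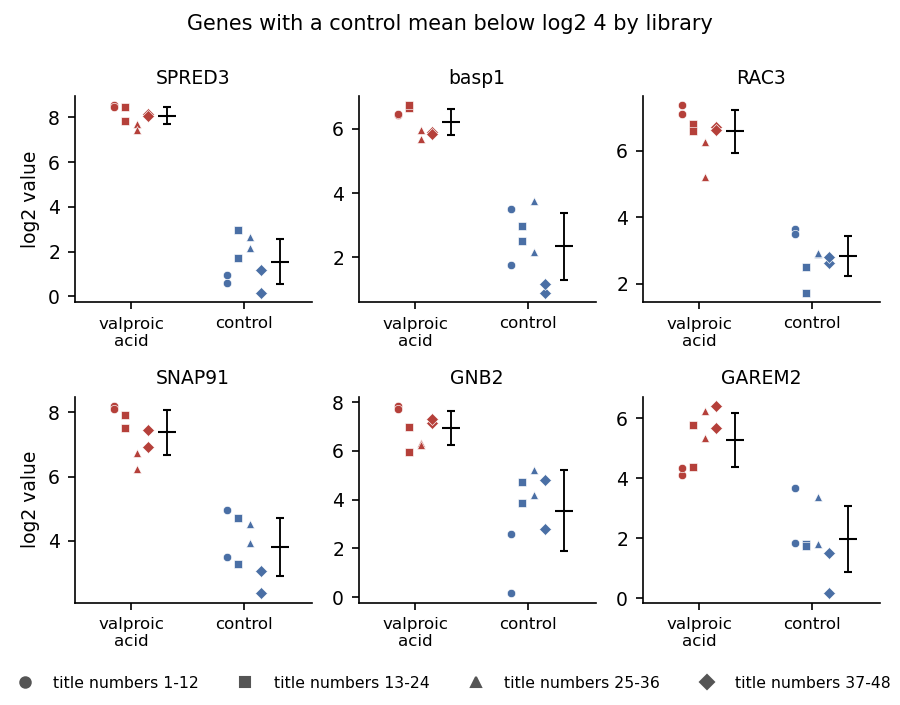
Normalized log2 values by library (points, 8 valproic acid libraries on the left and 8 control libraries on the right of each panel) with group mean ± SD (black) for 6 genes with a control mean below 4, on axes that differ between panels. Marker shapes give the set of title numbers. The 6 were chosen as the largest rises among such genes whose groups do not overlap, and SPRED3 has the widest gap.

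Ribosome assembly genes fell more often than they rose, by small amounts. Of 109 nucleolar genes of ribosome assembly, 36 fell and 7 rose (33.0% and 6.42%), none by 2-fold, and the median differed by -0.10. The RNA polymerase I subunit genes POLR1C and polr1e fell by 0.55 (SE 0.08, adjusted p = 3.7e-05) and 0.51 (SE 0.07, adjusted p = 3.6e-05), and the nucleolar GTPase gene GNL3L by 0.49. The median of this list was -0.10, -0.18, -0.15 and -0.02 in the sets in title order. The list of Mediator and RNA polymerase II genes was split, with 12 falls (16.7%) and 11 rises (15.3%) among 72, against 17.7% and 18.5% of all genes. Its median differed by 0.02, and with folic acid in place of control it had 14 falls and 6 rises. Both genes named MED13, the link between the Mediator kinase module and its core, fell, by 0.64 (ENSDARG00000003910) and 0.43 (ENSDARG00000053884). ERCC2, a helicase of the general factor TFIIH, rose by 0.59. Aminoacyl-tRNA synthetases had 7 falls (18.9%) and 3 rises (8.11%) among 37, the falls near the share of all genes. The falls included the mitochondrial enzymes YARS2 (-0.66, SE 0.09) and AARS2 (-0.47) and the rises the cytosolic CARS1 (0.40). Translation factors had 13 rises (18.3%) and 12 falls (16.9%) among 71, near the shares of all genes, with EIF2B4 at 0.57 and EIF4B at -0.37. With folic acid in place of control they had 8 rises and 11 falls. Nuclear pore and transport genes had 16 falls and 11 rises among 64 (10 and 9 with folic acid in place of control), with RCC2, a chromosome-bound regulator, at -0.39 and the export receptor XPO7 at 0.32.

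Zinc finger genes named znf, the largest family examined, were more often lower than higher. Of 294 measured, 71 fell and 24 rose, and the median differed by -0.25. Without the set 1-12, 46 fell. The median was -0.51 in the set numbered 1-12 and between -0.17 and -0.10 in the others. In znf526, a C2H2 zinc finger protein, the lowest, median and highest values were 7.46, 7.66 and 8.21 in valproic acid libraries and 9.23, 9.44 and 9.62 in control libraries. The groups did not overlap (difference -1.73, SE 0.10, adjusted p = 6.4e-09). Kruppel-like and Sp factors, also zinc finger proteins, fell in 19 of 28 cases (67.9%) and rose in 3, and 11 fell with folic acid in place of control. At the other end, of 79 cytosolic ribosomal proteins 1 rose and none fell, with 36.2% of all genes as background (none rose and 7 fell with folic acid in place of control). Splicing factors passed less often than all genes as well, with 21 falls and 12 rises among 151, and the serine and arginine rich factors srsf5a (-0.48, adjusted p = 8.8e-06) and SRSF5 (-0.39) were among the falls.

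The remaining genes with the smallest adjusted p in either direction belonged to no one function. Rises included PPM1L (ENSDARG00000063218), a protein phosphatase (1.67, SE 0.11, adjusted p = 1.5e-08), PLPPR3, a membrane protein of growing axons (1.96, SE 0.14, adjusted p = 4.2e-08), GOLGA7B, a partner of palmitoyltransferases (1.12, SE 0.08), PURB (ENSDARG00000103546), a single-strand DNA binding repressor (1.12, SE 0.08), and tent5ba, a poly(A) polymerase (1.59, SE 0.12). Falls included PPP1R9B (ENSDARG00000079366), a phosphatase scaffold on actin (-1.61, SE 0.13, adjusted p = 1.3e-07), and the transglutaminase gene tgm5l (-1.21, SE 0.12). Among genes in the top 10% by level, MAF1, the repressor of RNA polymerase III, and ccdc9 both rose by 0.74 (SE 0.08 and 0.07), and zfx (-0.70), the adhesion receptor CELSR2 (-0.64) and the methionine cycle enzyme BHMT (-0.68) fell. MAF1 was at 12.70 ± 0.20 in valproic acid and 11.96 ± 0.12 in control libraries (SD, n = 8 each).

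In signaling pathways that pattern the embryo falls outnumbered rises. Of 63 Wnt pathway genes 29 fell and 1 rose, and the median differed by -0.27. PRICKLE1 (ENSDARG00000045694), of the planar polarity branch, fell by 0.68 (SE 0.09, adjusted p = 1.2e-05), the coreceptor RYK by 0.46 (SE 0.06) and the receptor FZD8 (ENSDARG00000045444) by 0.41 (SE 0.06). Of 49 BMP pathway genes 20 fell and 2 rose, with the ligand BMP2 at 9.97, 10.25 and 10.51 in valproic acid libraries and 10.60, 10.95 and 11.08 in control libraries, without overlap (difference -0.66, SE 0.08, adjusted p = 1.2e-05), and with szl, a secreted regulator of ventral tissue, at -1.08 (SE 0.15). FGF and MAPK signaling had 19 falls and 8 rises among 48, and beside SPRED3 the rises included HRAS (0.78, SE 0.10) and MAP2K2 (0.40, SE 0.06). Of 29 genes of retinoic acid metabolism and reception, 11 fell and 2 rose, with the receptor gene rxrbb at -0.98 (SE 0.11, adjusted p = 4.3e-06), the retinal reductase DHRS3 (ENSDARG00000044803) at -0.48 and RDH14 (ENSDARG00000002467) at 0.72. Of the hedgehog and cilia list 17 fell (27.9%) and 10 rose (16.4%) among 61, against 17.7% and 18.5% of all genes. The receptor SMO fell by 0.48 (SE 0.05, adjusted p = 3.7e-06), and the transport genes IFT57 and IFT172 rose by 0.63 and 0.57.

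Lists of germ layer and axis genes followed the same side, while several of their markers did not pass. Of 56 genes of Nodal signaling and mesendoderm, 18 fell and 4 rose, with 7 rises without control replicate 1 and 10 without the set 1-12. The endoderm gene SOX17 had 8.31, 8.49 and 8.87 in valproic acid libraries and 9.40, 9.66 and 9.87 in control libraries, without overlap (difference -1.09, SE 0.09, adjusted p = 1.2e-07), with differences of -0.94, -1.0, -1.29 and -1.13 in the sets. SMAD3 (ENSDARG00000036096), a signal transducer, rose by 1.56 (SE 0.20). Of 33 genes of the organizer and axial mesoderm, 17 fell and none rose, with COL2A1 (ENSDARG00000011407) at -1.31 (SE 0.23) and SHH (ENSDARG00000068567), a midline signal, at -0.68 (SE 0.13). Of 22 blood, vessel and heart genes, 12 fell and none rose, with GATA2 at -0.60 (SE 0.07, adjusted p = 8.9e-06), GATA6 at -0.54 and the apelin receptor gene aplnra at -0.42. The yolk syncytial layer list had 18 falls and no rise among 40, including APOB (-1.09, SE 0.16) and hnf4b (-0.98, SE 0.13). Its median was -0.06 in the set 1-12 and -0.66, -0.28 and -0.41 in the others in title order. The yolk syncytial markers HNF4A, at -0.25 (limma adjusted p = 0.096), and apoa4b.1, at -0.39 (limma adjusted p = 0.64), did not pass. The axial markers noto, at -0.04 (limma adjusted p = 0.77), and GSC, at -0.13 (limma adjusted p = 0.47), did not pass. FOXA2 fell by 0.25 (limma adjusted p = 0.013) and the other SHH gene (ENSDARG00000038867) by 0.84 (limma adjusted p = 0.019). Beside SOX17, the endoderm marker sox32 did not pass, at -0.15 (limma adjusted p = 0.45). Among marker genes of mesoderm, tbx6 fell by 1.0 (SE 0.24, adjusted p = 0.0033), while tbxta at 0.09 (adjusted p = 0.48), msgn1 at 0.12 (adjusted p = 0.42) and tbx16 at -0.14 (adjusted p = 0.15) did not pass. Among those of the neural plate, OTX2 fell by 0.36 (adjusted p = 0.033) and sox19a by 0.17 (adjusted p = 0.0061), while SOX2 at 0.03 (adjusted p = 0.74) and SOX3 at 0.07 (adjusted p = 0.28) did not pass.

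Regional neural genes fell more often than they rose. Falls numbered 22 and rises 2 among 31 genes of hindbrain and spinal cord (71.0% and 6.45%). Among 44 genes of forebrain and midbrain territory there were 23 falls and 2 rises, among 47 of the neural border, its crest and its placodes 23 falls and 4 rises, and among 36 somite genes 20 falls and 1 rise. Their medians were -0.59, -0.46, -0.43 and -0.48. Leaving out a set other than 1-12 cut the hindbrain count to between 9 and 12 falls. The placode gene six4b had 7.41, 7.59 and 7.76 in valproic acid libraries and 8.21, 8.67 and 8.88 in control libraries, without overlap (difference -1.04, SE 0.11, adjusted p = 2.1e-06), and TBX1 fell by 0.93 (SE 0.11). NR2F6 (ENSDARG00000003165) fell by 0.87 (SE 0.13), SFRP5, a secreted Wnt antagonist of the forebrain, by 2.47, reaching the floor of the scale in 1 valproic acid library, and her7 and dlc, of the segmentation clock, by 0.47 and 0.50. Neural progenitor and neurogenesis genes were the most divided of these lists, with 26 falls and 10 rises among 69. The median of this list was 0.01 in the set 1-12 and -0.38, -0.26 and -0.12 in the others in title order. PROX1 ran from 1.24 to 3.79 in valproic acid and from 4.38 to 6.11 in control libraries (difference -2.69, SE 0.31, adjusted p = 4.5e-06), and the lowest of these values was the floor of its library, while SOX4 (ENSDARG00000004588), a factor of early neurons, rose by 1.84 (SE 0.22) and the neuronal zinc finger gene MYT1 by 1.29 (SE 0.12, adjusted p = 6.9e-07).

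The falls of regional genes were not found in every set of libraries. In title numbers 1-12 the medians of the hindbrain, anterior neural and neural border lists were 0.10, 0.12 and 0.08, against -0.88, -0.58 and -0.62 in 13-24, -0.85, -0.62 and -0.60 in 25-36 and -0.49, -0.52 and -0.42 in 37-48. The Hox and Cdx list, with 12 falls and no rise among 34 measured and a median of -1.01, had medians of 0.78, -2.22, -0.91 and -1.23 in the sets in title order. HOXC8 had 1.58, 4.81 and 7.34 in valproic acid libraries and 5.50, 7.60 and 8.66 in control libraries as lowest, median and highest value, and hoxc3a 0.64, 4.44 and 8.44 in valproic acid libraries and 5.68, 7.78 and 9.16 in control libraries. The groups overlapped for both, and both were higher in valproic acid in the set 1-12, by 0.41 and 1.13, and lower in the others. Lists of RNA stored in the egg and of germ cells differed in the other direction, with medians of -0.40, 0.41, 0.13 and 0.03 for maternal transcripts and -0.81, 0.50, 0.29 and 0.10 for primordial germ cell genes. Over all libraries 4 of 43 maternal transcripts rose and 1 fell.

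**Figure D5:**
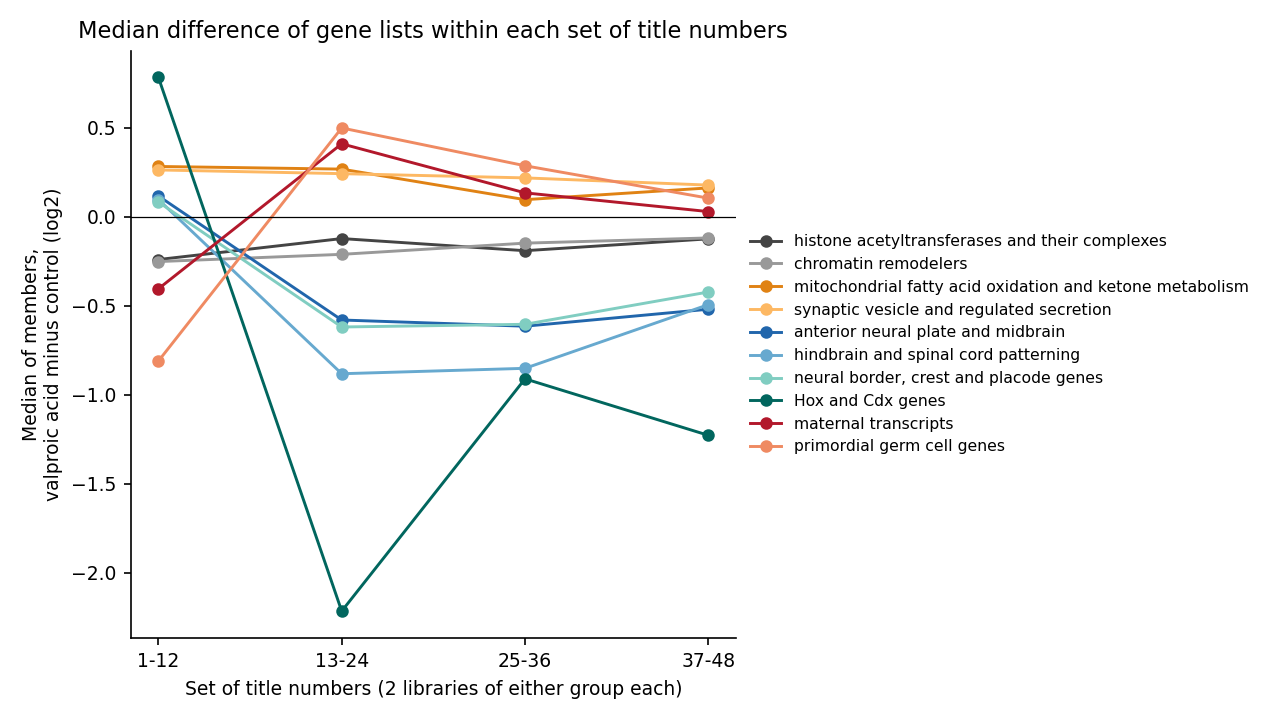
Median difference between valproic acid and control embryos (log2) over the members of 10 gene lists within each set of title numbers, with 2 libraries of either group per set. Lines join the values of a list and imply no order of the sets. Chromatin, fatty acid oxidation and secretion lists keep their side of 0 in all 4 sets, while the neural, Hox and Cdx, maternal and germ cell lists change side in the set 1-12.

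In that set both valproic acid libraries were high for Hox and Cdx genes. Their list means were 6.83 and 6.51, while the other valproic acid libraries ran from 3.45 to 5.02. Control replicate 1 had the lowest mean of its group, 4.73, close to control replicates 5 and 6 at 5.05 and 5.30, and the other controls ran from 5.97 to 7.27. The germ cell list mean was 7.45 in valproic acid replicate 1, the lowest of its group, close to 7.66 and 7.67 in replicates 7 and 2, and 8.53 in control replicate 1, the highest of its group, with control replicate 6 at 8.35. Set against the folic acid libraries of each set, the Hox and Cdx medians were -0.05, -2.03, -1.11 and -2.12. Without control replicate 1 the Hox and Cdx list had 23 falls in place of 12, without valproic acid replicate 1 it had 17, and without the set 13-24 or 25-36 it had 5. Without valproic acid replicate 1 the hindbrain, anterior neural and neural border lists had 20, 23 and 24 falls, and without control replicate 1 they had 22, 26 and 24. A test of whether the difference depends on the set called 126 genes (0.802%), and 2276 at an unadjusted p under 0.05. It called 15 without control replicate 1 and 18 without valproic acid replicate 2. In limma it called none without the set 1-12 (785 at an unadjusted p under 0.05), none with folic acid in place of control (1613) and none without valproic acid replicate 1 (1425). Its smallest adjusted p, 0.016 by limma, was shared by TP63, a surface ectoderm gene with differences of 0.28, -2.95, -1.88 and -2.14 in the sets, cdx1a, apoa1b and GATM. What sets these libraries apart was not tested.

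Surface epithelium genes had 20 falls and 3 rises among 59, the falls including evpla (-0.64, SE 0.07, adjusted p = 3.7e-06) and anxa1c (-0.93, SE 0.10). Markers of the enveloping layer and surface ectoderm were divided. The genes foxi1 (-0.56, limma adjusted p = 7.6e-06), TFAP2A (-0.39, limma adjusted p = 0.0094) and TP63 (-1.67, limma adjusted p = 0.00041) fell, and cldne rose by 0.18 (limma adjusted p = 0.047). The keratin markers krt4 and krt8 differed by 0.03 and -0.10 and did not pass (adjusted p = 0.79 and 0.42), nor did cyt1 at -0.25 (limma adjusted p = 0.19). Early zygotic and pluripotency genes had 20 falls and 6 rises among 61, with 11 rises without control replicate 1 and 16 falls and 14 rises without the set 1-12. Their central factor pou5f3 differed by 0.28 (SE 0.14, adjusted p = 0.12), with -0.51, 0.74, 0.54 and 0.35 in the sets.

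The size of the response set valproic acid apart from the other compounds of the series, which share the same control libraries. In one fit of all 32 libraries, 199 genes passed for retinoic acid against control (1.27%). For folic acid against control none passed in limma, with 773 at an unadjusted p under 0.05. In direct comparisons 5565 genes passed for valproic acid against retinoic acid (35.4%) and 5491 for valproic acid against folic acid. The differences of the named chromatin genes against retinoic acid were -1.34 for EPC2, -1.07 for EPC1 (ENSDARG00000060054) and -0.98 for KMT5B. SESN1 differed by 1.68, CPT1A by 1.05 and SPRED3 by 6.47 in that comparison. For ptmaa the difference was 1.06 against retinoic acid, which itself raised the gene by 0.55 over control (limma adjusted p = 0.021), and for ldlrb it was -1.94, retinoic acid having raised that gene by 0.60 (limma adjusted p = 0.0026). Without the doses, which the labels do not give, these are differences between the exposures as made.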

How the data were processed

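Polyadenylated RNA of whole zebrafish embryos was sequenced from directional libraries, per the labels' protocols. The authors deposited 1 table of normalized log2 values for 15710 Ensembl genes and 32 libraries. Per the submitters' processing notes, the tools were HTSeq 0.11.0 and limma and the build was GRCz11. For the aligner, annotation and normalization, nothing is given in the sources used here. Depth could not be recovered from the values, so intervals come from the spread between libraries.

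The 8 valproic acid and 8 control libraries were fitted with limma 3.58.1 in R 4.3.3, with the title-number set as a block, an intensity trend and Benjamini-Hochberg adjustment over all genes. No gene was filtered, and a gene passed at an adjusted p under 0.05. Dependence on the set was tested as a group by set interaction with 3 degrees of freedom. The code was tested on simulated data. Gene names came from a table of identifiers and cover 15016 genes, and where a name is shared by several genes the Ensembl identifier is given. Of the symbols in the gene lists, 801 matched exactly, 1424 without regard to case and 738 without a paralog letter, and 776 did not match. Close paralogs may share reads, and how the counting treated them is not known. No set test was run, and lists are described by counts and medians. The members and lists were chosen with earlier results of these data known.

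Genes were named by rule. These are the 12 rises and 12 falls of at least 2-fold with the smallest adjusted p among named genes of the upper 75% by level with the same sign in all 4 sets, the 5 largest rises and falls in the top 10% by level, the 6 largest rises from a control mean below 4 without overlap and up to 3 members per list with the smallest adjusted p. A few fixed genes and the 6 with the smallest p for dependence on the set were added, and further list members were named after their values were seen. Some genes that meet the rule are left unreported. The same-numbered sets were checked as pairs by the correlation of deviations, which was -0.12, 0.05, 0.48 and 0.51. Alternatives were a fit without the block, all 32 libraries, no trend, median centring, a mean above 5, means of the 2 libraries of a group and set, folic acid in place of control and each library left out. Leaving out each set was chosen after seeing the data.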

Additional observations from a re-analysis of the deposited data

Results flagged for a closer look

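In 15 of 406 groups of 8 values, 3.69%, 1 library lay far from the others by Dixon's test, where chance alone gives about 1 in 20. No library held more than 3 of them. Within valproic acid the lowest library stood apart for ATP6V1B2 (ENSDARG00000043465, 7.15), RDH14 (ENSDARG00000002467, 8.83), YARS2 (8.10), FZD8 (ENSDARG00000045444, 10.90), szl (7.34) and SIRT6 (8.21), and the highest for SQSTM1 (9.33). In controls the lowest library lay far below the rest for EPC2 (9.86), sypb (4.72), tp53inp2 (10.22), RCC2 (13.36), IFT172 (9.11) and ADAM17 (ENSDARG00000043213, 9.30). The highest lay far above the rest for HDAC1 (14.58) and TDRD6 (8.46).

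The size of the valproic acid difference depended on the title-number set for 11 of the genes named here, by the limma test of the group by set interaction. Differences are given for the sets 1-12, 13-24, 25-36 and 37-48 in that order. Regional and ectodermal genes were lower outside the first set, with hoxc3a at 1.13, -4.77, -5.39 and -3.34 (adjusted p = 0.0216), TP63 at 0.28, -2.95, -1.88 and -2.14 (adjusted p = 0.0160), PAX6 at -0.09, -2.15, -2.82 and -1.45 (adjusted p = 0.0231) and cdx1a at 0.33, -1.47, -1.47 and -0.76 (adjusted p = 0.0160). Metabolic genes had the same order of signs, with apoa1b, an apolipoprotein of the yolk syncytial layer, at 0.09, -1.35, -1.53 and -0.84 (adjusted p = 0.0160), BHMT at 0.20, -1.15, -1.23 and -0.54 (adjusted p = 0.0222), GATM, of creatine synthesis, at 0.64, -1.01, -1.06 and -0.44 (adjusted p = 0.0160) and acsl1b, a fatty acid activating enzyme, at 0.74, -1.28, -0.85 and -0.50 (adjusted p = 0.0216). The early factor pou5f3 went the other way, at -0.51, 0.74, 0.54 and 0.35 (adjusted p = 0.0493). NEO1 (ENSDARG00000102855), a netrin receptor, was at 1.18, -1.99, -0.10 and 0.09 (adjusted p = 0.0216). The linker histone gene histh1l1, at 2.16, 0.62, 0.72 and 1.31, was higher in all 4 sets (adjusted p = 0.0216). The cause of the dependence on the set was not tested.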

How the results depend on the processing

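The counts of genes that passed stayed within 1.5 times of 2904 higher and 2788 lower under the alternatives tried, except that 1773 were lower in limma when both libraries of a group in a set were averaged first. In that setting 1945 were higher, so both counts dropped when a pair of libraries was not treated as independent. Leaving out 1 library gave 2589 to 2926 higher and 2440 to 2786 lower genes, with 650 to 704 and 481 to 633 of at least 2-fold. Without the replicate block 2574 genes were higher and 2435 lower, 651 and 528 of them at least 2-fold. With genes above a mean of log2 5 only, 357 were at least 2-fold higher and 318 lower, since 12811 genes were then tested. Of 194 genes examined singly that passed, 9 were lost under some setting: GATM in 18 settings, TDRD1 in 13, HDAC8 in 11, TDRD6 in 4, cth1 in 3, and KLF11 (ENSDARG00000030844), LDB1 (ENSDARG00000103158), RNF41 and gra in 1 each. Of 99 lists and families, 60 kept the side on which most of their calls lay in every setting and 23 changed it in some. Small counts moved with single libraries. Without control replicate 1 falls numbered 6 in place of 3 for glycolysis and 5 in place of 3 for autophagy. The count of genes whose difference depended on the set was the least stable result. It was 126, but 311 with all 32 libraries, 0 without the intensity trend (2075 at an unadjusted p under 0.05), 0 with folic acid in place of control (1613), 0 without the set 1-12 (785) and 73 without the set 37-48, and from 0 to 492 when 1 library was left out. It was lowest without valproic acid replicate 1 and highest without valproic acid replicate 3, and 466 without control replicate 2. Apart from the cases where fewer genes or libraries were tested, the cause was not tested. It could not be computed without the block or on group means. The table holds no counts, so depth limits low genes to an unknown degree, and a difference had a 95% interval with a typical (median) half-width of 0.321.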

Other observations

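Families outside the functions described above were mostly near the share of all genes that passed, or split. Solute carriers, which move metabolites across membranes, had 59 rises and 40 falls among 265, with 26 falls without control replicate 7. Mitochondrial ribosomal proteins had 16 rises and 7 falls among 75, 8 rises and 7 falls without the set 1-12, and 7 rises and 17 falls with folic acid in place of control. Guidance and contact families had more falls than rises. There were 11 falls and 1 rise among 26 semaphorins and plexins, with 7 falls without control replicate 5 or valproic acid replicate 8, 8 falls and 2 rises among 21 ephrins and Eph receptors, and 8 falls and 3 rises among 25 cadherins and protocadherins, with 5 falls without control replicate 7. Of the 5692 genes that passed, 819 had no name or only a clone name.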
